A study of Mus musculus with 26 samples.

Results

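The comparison described here is between EML cells labelled CD34- CD103- and EML cells labelled CD34+ CD103-, 4 arrays each, all in the third array set of the series, 8 of its 26 arrays in all. Members were taken from the sample labels alone: arrays 1 to 4 hold CD34- CD103- cells without Epo and arrays 5 to 8 hold CD34+ CD103- cells. EML (erythroid, myeloid, lymphoid) is an established mouse progenitor cell line, and both fractions came from cultures in IMDM with horse serum and stem cell factor, with no genotype difference and no added agent given in the labels. Total RNA was labelled with Cy3 and read on Agilent 1-colour arrays, which measure the brightness of a spot for each probe. A further 3 arrays of the set hold CD34- CD103- cells put through Epo-driven erythroid differentiation and are given as context. They also entered the estimate of the spread, the filter on probes and the choice of probe per gene. The labels do not state the sorting gates or that arrays of a group hold independent cultures, so p-values measure only the spread between these samples, which may be technical. Each array averages over the cells of a sorted fraction of a single line, in which fewer cells of a type and less RNA per cell cannot be told apart.

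CD34 is a surface sialomucin of blood stem and progenitor cells that is lost as they mature, and CD103 is the integrin alpha E chain, encoded by Itgae. Erythroid progenitors turn on the transcription factors Gata1 and Klf1, which drive genes for globins, heme synthesis and the red cell membrane. Mast cells arise from related progenitors, use Gata2 and Mitf, and fill their granules with histamine, made by the enzyme Hdc, and with proteases of the chymase and tryptase families.

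Levels are log2 of the background-subtracted signal minus the 75th percentile of that array, so that 0 is the 75th percentile and 1 unit is a 2-fold step. Differences are CD34- CD103- minus CD34+ CD103-, with the standard error (SE) of limma's fit, and a gene is called where its Benjamini-Hochberg adjusted p is below 0.05. The 75th percentile lay between 851.2 and 1228 units of brightness on the 8 arrays, and 84.5% to 87.6% of probes were well above background. Replicate arrays of the CD34- CD103- group correlated at r of 0.9838 to 0.9932, and none held identical values. Of 27362 genes tested, 3300 were called (12.1%), 1625 higher in CD34- CD103- cells (5.94%) and 1675 lower (6.12%). Under scaling on the spike-in probes only 14% of 4245 called genes were higher, against 49.2% here, since that scaling moved the median difference of all genes from -0.05 to -0.27.

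The higher and lower genes differed in size. Among called genes, 409 were at least 2-fold higher (1.49% of genes tested) and 187 at least 2-fold lower (0.683%). At 8-fold or more there were 63 higher and 0 lower genes, and at 4-fold or more 127 higher and 9 lower. These counts use the measured signals, also where a group was not above background on some or all arrays, so that such sizes are not exact. Of all called genes, 20 higher ones were above background on no CD34+ array and 12 lower ones on no CD34- array. Rhd counts among the 63, although its rise is bounded only at 5.17-fold. The 4 arrays of each group did not overlap for 3170 of the called genes, a pattern that 16.8% of all genes tested showed.

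**Figure D1:**
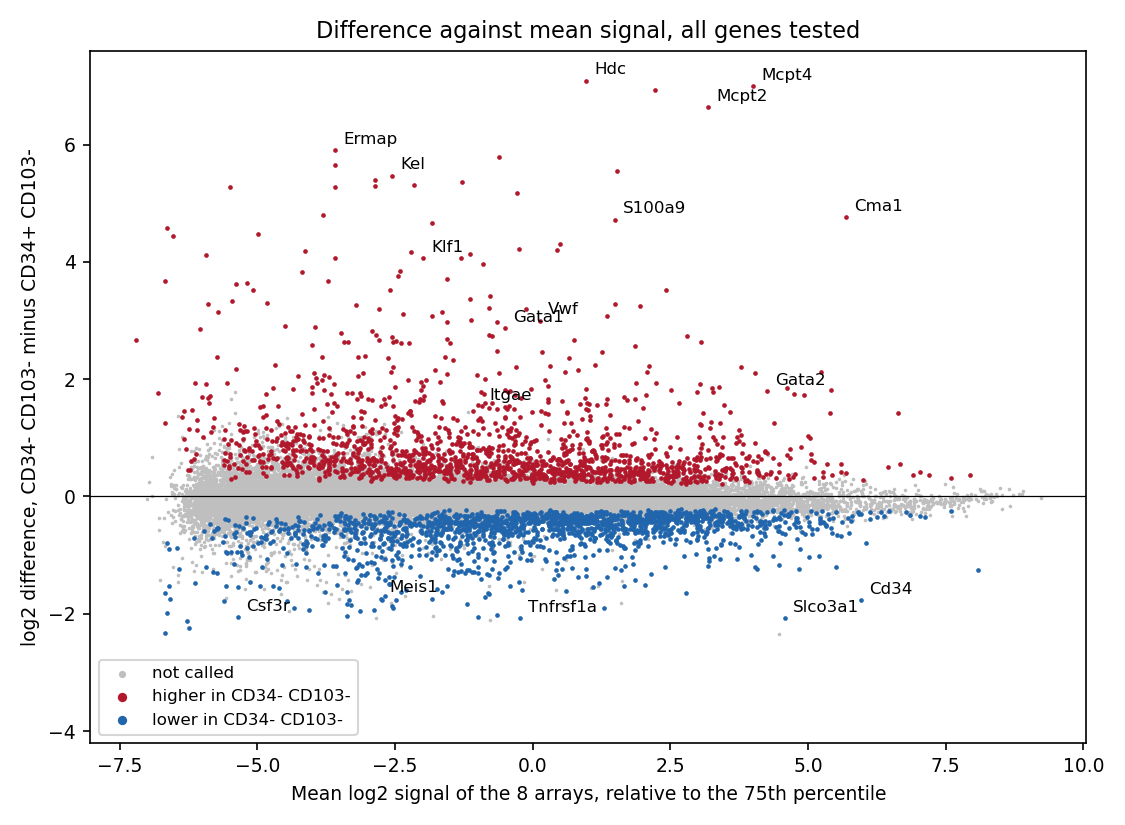
log2 difference between CD34- CD103- and CD34+ CD103- cells (vertical) against the mean log2 signal of the 8 arrays (horizontal), 1 point per gene tested; red points are the 1625 genes called higher, blue points the 1675 called lower and grey points the rest. The upper side reaches 7.09 (Hdc) with 63 called genes at 8-fold or more, and no called gene on the lower side reaches 8-fold. Measured differences are drawn, also for genes not above background in a group.

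Promoter sequences of genes with some of the largest differences are shown because Gata1 and Gata2, whose proteins bind GATA motifs, both rose. Each is the 250 bases before the transcription start, read 5′ to 3′ on the gene's strand, from RefSeq on mouse build GRCm38.p6, and capitals mark GATA hexamers (the letters AGATAA, the variant ending in G that reads AGATAG, and likewise the pair that reads TGATAA and, with a final G, TGATAG, each searched on both strands, so that a match on the other strand reads as the reverse complement). Hdc lies at chr2:126618679-126618928, Mcpt4 at chr14:56062311-56062560, Kel at chr6:41704326-41704575 and Ermap at chr4:119189996-119190245, all on the minus strand. Cd34, which fell, lies at chr1:194938571-194938820 on the plus strand.
Hdc: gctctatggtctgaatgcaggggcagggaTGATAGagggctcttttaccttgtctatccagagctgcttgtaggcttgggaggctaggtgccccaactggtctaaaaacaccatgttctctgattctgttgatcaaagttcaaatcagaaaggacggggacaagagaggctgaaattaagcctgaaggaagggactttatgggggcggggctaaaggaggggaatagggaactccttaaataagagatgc
Mcpt4: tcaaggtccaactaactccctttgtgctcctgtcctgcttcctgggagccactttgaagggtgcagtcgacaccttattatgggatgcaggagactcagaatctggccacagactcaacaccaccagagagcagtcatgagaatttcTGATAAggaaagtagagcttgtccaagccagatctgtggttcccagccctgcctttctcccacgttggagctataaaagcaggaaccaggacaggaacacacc
Kel: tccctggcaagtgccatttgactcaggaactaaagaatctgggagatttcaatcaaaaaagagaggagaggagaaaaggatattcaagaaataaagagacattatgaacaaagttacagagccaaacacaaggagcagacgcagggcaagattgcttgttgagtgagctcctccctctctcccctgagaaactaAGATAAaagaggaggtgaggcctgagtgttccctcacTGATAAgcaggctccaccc
Ermap: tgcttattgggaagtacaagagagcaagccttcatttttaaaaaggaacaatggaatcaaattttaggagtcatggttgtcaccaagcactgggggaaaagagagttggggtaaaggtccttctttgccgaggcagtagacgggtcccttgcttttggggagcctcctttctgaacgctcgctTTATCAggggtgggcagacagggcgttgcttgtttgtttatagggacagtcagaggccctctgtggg
Cd34: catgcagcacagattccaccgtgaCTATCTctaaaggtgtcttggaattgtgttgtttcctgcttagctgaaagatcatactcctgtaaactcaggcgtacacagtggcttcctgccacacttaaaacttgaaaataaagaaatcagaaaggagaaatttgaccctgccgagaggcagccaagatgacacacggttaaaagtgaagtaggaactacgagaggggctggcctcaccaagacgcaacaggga
The Hdc match TGATAG starts 221 bases before the start site, the Mcpt4 match TGATAA 103 bases before it, and the Ermap match TTATCA 67 bases before it. Kel holds AGATAA at 56 and TGATAA at 19 bases before the start, and Cd34 holds CTATCT at 226. Of the 15 genes named for the largest rise, 11 had a promoter in the table and 10 of these held a match, Tspan33 being the exception. Among the 15 named for the largest fall, 11 had a promoter and 3 held a match (Cd34, Pglyrp1 and Rab3il1). The Cd34 sequence printed above is thus not typical of the falls, and the promoter of Tnfrsf1a, for example, held no match. Over the whole table, 29.7% of 27025 genes and 26.5% of 32851 windows of this length held a match. A match describes letters in the window, and binding was not measured.

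Cd34 itself was lower in the cells sorted as CD34-, but its transcript remained. The CD34+ CD103- arrays read 7.05, 6.74, 6.79 and 6.81, and the CD34- CD103- arrays 5.20, 5.21, 4.63 and 5.28. The groups did not overlap, and the probe was well above background on all 8 arrays. Cd34 fell by 1.77 (SE 0.16, 3.41-fold, adjusted p = 3.19e-05), a check on the labels and no finding, as the cells were sorted on its product. Array 3 stood below the other 3 CD34- arrays.

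Itgae, the gene for CD103, rose although both fractions are labelled CD103-. It read -0.02, -0.27, 0.01 and -0.35 in CD34- CD103- cells and -1.75, -1.36, -1.79 and -1.91 in CD34+ CD103- cells. The lowest CD34- array lay above the highest CD34+ array, and the difference was 1.54 (SE 0.13, 2.92-fold, adjusted p = 2.07e-05). Of the other sorting marker genes in the series, Kit, the stem cell factor receptor, differed by 0.34 (SE 0.11, adjusted p = 0.0791) and Ly6a, which encodes Sca1, by -0.33 (SE 0.17, adjusted p = 0.284), with overlapping arrays for both.

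Mast cell and basophil genes held the largest differences of the comparison. Of 26 tested, 21 rose and 1 fell (84.6% called, against 12.1% of all genes tested). The median difference was 2.11 against -0.05 over all genes. The 4 largest rises of the comparison's named genes (Hdc, Mcpt4, Cma2 and Mcpt2) were all members. The summed signal of the 26, in multiples of each array's 75th percentile, was 1370 to 1480 in CD34- CD103- cells and 662 to 704 in CD34+ CD103- cells.

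Hdc, which makes histamine from histidine, read 4.38, 4.53, 4.67 and 4.48 in CD34- CD103- cells and -2.66, -2.21, -2.63 and -2.79 in CD34+ CD103- cells. All 4 arrays of the first group lay far above all 4 of the second, a difference of 7.09 (SE 0.13, 136-fold, adjusted p = 8.61e-10). Mcpt4, a connective tissue mast cell chymase, read 7.33, 7.62, 7.53 and 7.51 against 0.11, 0.53, 1.1 and 0.23, and array 7 was the highest of the CD34+ arrays. It rose by 7.00 (SE 0.22, 128-fold, adjusted p = 1.79e-08).

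Further chymase family genes moved with Mcpt4. Cma2 rose by 6.93 (SE 0.28, 122-fold), Mcpt2, a mucosal mast cell protease, by 6.64 (SE 0.15, 99.7-fold) and Cma1 by 4.76 (SE 0.10, 27.1-fold). Mcpt8, a basophil protease, rose by 2.63 (SE 0.13, 6.18-fold). These genes are close relatives, and cross-hybridisation between their probes was not tested. The tryptases Tpsg1 (5.78, SE 0.28, 54.9-fold) and Tpsb2 (4.22, SE 0.18, 18.6-fold) also rose, as did Ms4a2, the beta chain of the high-affinity IgE receptor (3.97, SE 0.15, 15.7-fold).

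The mast cell genes did not all move. Cpa3, carboxypeptidase A of mast cell granules, read 8.23, 8.21, 8.10 and 8.18 in CD34- CD103- cells and 8.09, 8.07, 8.16 and 7.93 in CD34+ CD103- cells. Its arrays overlapped (difference 0.12, SE 0.08, adjusted p = 0.417). The alpha and gamma chains of the IgE receptor, Fcer1a and Fcer1g, differed by 0.27 (SE 0.18, adjusted p = 0.453) and 0.05 (SE 0.12, adjusted p = 0.846), unlike the beta chain's 3.97. Mitf, the mast cell transcription factor, rose by 0.95 (SE 0.08, 1.93-fold, adjusted p = 1.85e-05) on its brightest probe, a call lost over the mean of its probes (0.26, adjusted p = 0.43). Il1rl1, the interleukin 33 receptor, rose by 1.86 (SE 0.13, 3.62-fold).

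**Figure D2:**
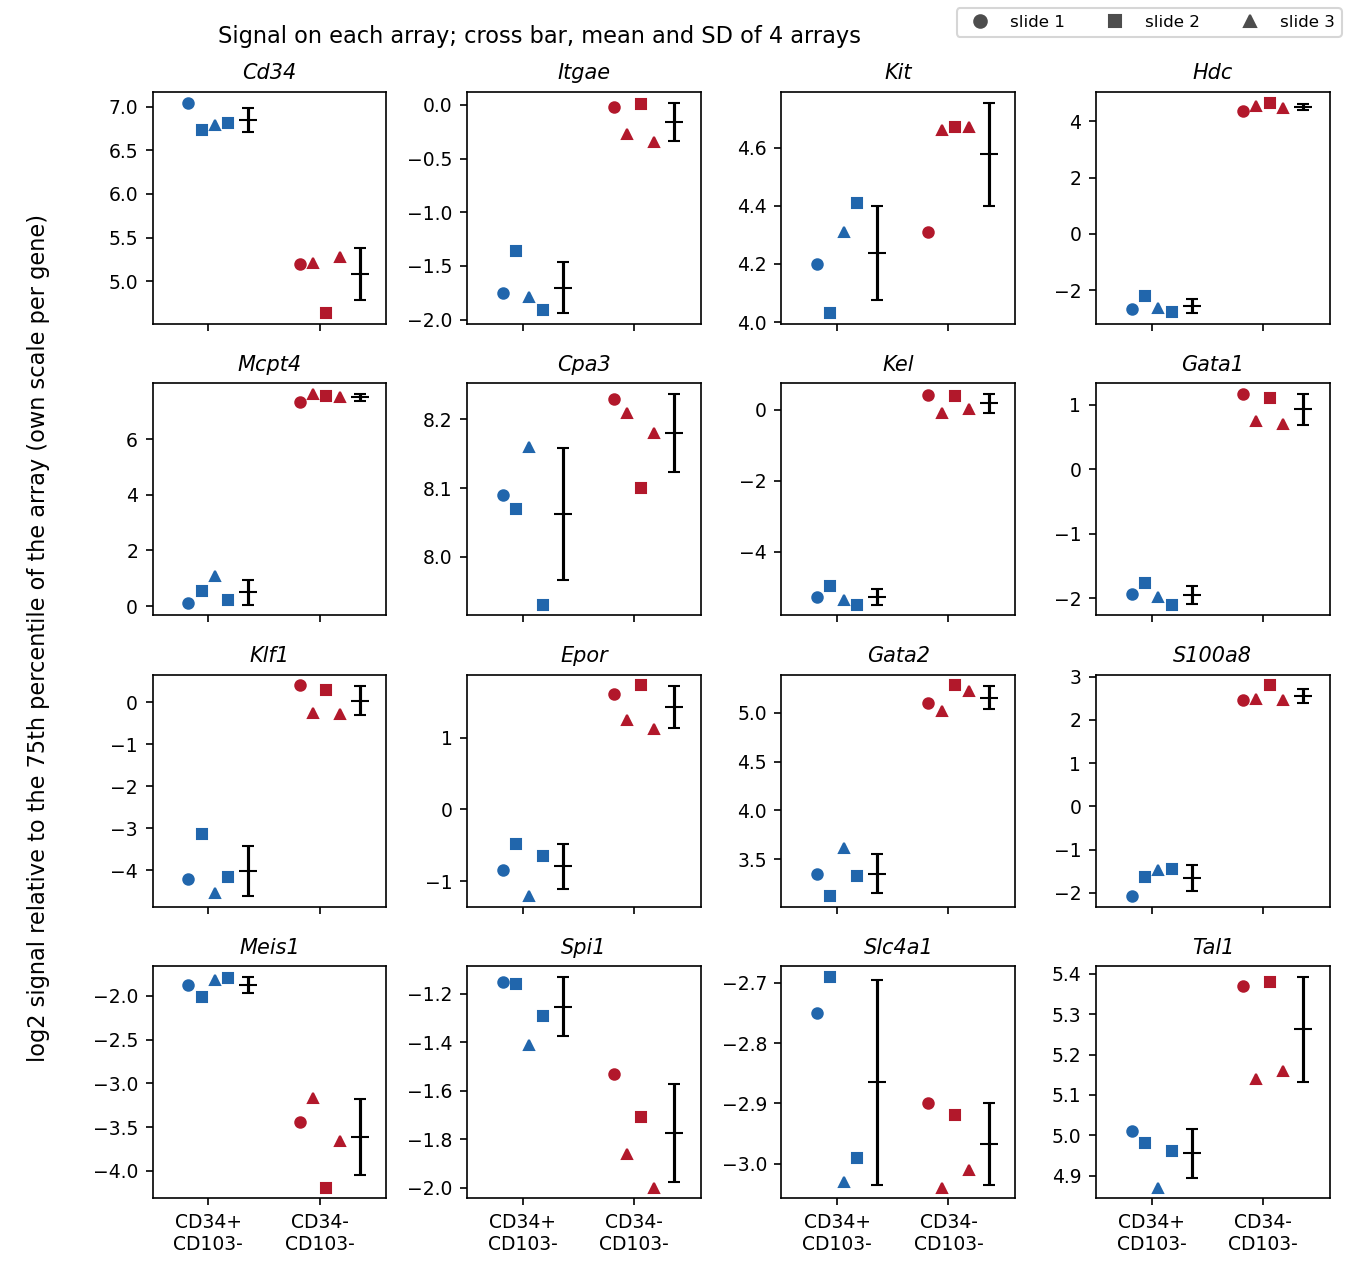
log2 signal relative to the 75th percentile of the array (vertical, own scale for each gene) for 16 genes on the 4 CD34+ CD103- arrays (blue) and the 4 CD34- CD103- arrays (red); symbols give the slide, and the cross bars the mean and SD. Hdc, Mcpt4, Kel, Gata1 and Klf1 separate the groups by 2.87 or more, Cpa3 and Slc4a1 overlap, and Cd34 and Meis1 are lower in CD34- CD103- cells.

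Erythroid transcription factors changed in part. Of 19 tested, 8 rose and 3 fell (57.9% called, against 12.1% of all genes tested). Their median difference was 0.17 and turned to -0.06 under spike-in scaling. Gata1 read 1.17, 0.75, 1.1 and 0.71 in CD34- CD103- cells and -1.93, -1.76, -1.98 and -2.10 in CD34+ CD103- cells. Every CD34- array lay above every CD34+ array, with a difference of 2.87 (SE 0.13, 7.33-fold, adjusted p = 1.65e-07). Klf1, the activator of adult beta globin, rose by 4.06 (SE 0.27, 16.6-fold, adjusted p = 3.8e-06), from a mean of -4.02 ± 0.60 (SD, n = 4) to 0.04 ± 0.35 (SD, n = 4).

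Gfi1b, a repressor needed for red cell and platelet formation, rose by 1.22 (SE 0.10, 2.34-fold) and E2f2, a cell cycle factor of late erythroid cells, by 0.85 (SE 0.07, 1.80-fold). Tal1, a partner of Gata1, differed by 0.31 (SE 0.08, adjusted p = 0.034). Its call was lost under normexp background correction and spike-in scaling, in the fit on the 8 arrays alone and without any of 6 single arrays (1, 3, 5, 6, 7 or 8). Myb, which maintains immature progenitors, differed by -0.11 (SE 0.08, adjusted p = 0.497).

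Blood group and red cell membrane genes split into a group with large rises and a group with none. Of 25 tested, 10 rose and 1 fell (44% called, against 12.1% of all genes tested). Their median was 0.24, and 0.01 under spike-in scaling. Kel, which encodes the Kell blood group protein, read 0.41, -0.10, 0.40 and 0.02 in CD34- CD103- cells and -5.29, -4.98, -5.36 and -5.50 in CD34+ CD103- cells. The groups lay far apart, with a difference of 5.47 (SE 0.14, 44.3-fold, adjusted p = 4.67e-09).

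Ermap, the Scianna blood group gene, was well above background on all 4 CD34- arrays and on none of the CD34+ arrays. Its rise came to at least 55.9-fold (adjusted p = 4.53e-08), the bound being set by the lowest signal that counts as above background on each CD34+ array or the probe's own signal, whichever is higher. Rhd, of the Rh complex, was above background on the same arrays and rose at least 5.17-fold (adjusted p = 1.48e-06), a call lost under normexp correction. Rhag, its partner, rose by 2.59 (SE 0.16, 6.03-fold).

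Gypc, glycophorin C, rose by 2.82 (SE 0.13, 7.05-fold) and Art4, the Dombrock gene, by 2.10 (SE 0.18, 4.30-fold). Both had groups that did not overlap, and the call of Art4 was lost under normexp correction. By contrast Slc4a1, the anion exchanger band 3, read -2.90, -3.04, -2.92 and -3.01 against -2.75, -2.69, -3.03 and -2.99, with overlap and a difference of -0.10 (SE 0.11, adjusted p = 0.651). Ank1, ankyrin of the red cell skeleton, differed by 0.08 (SE 0.11, adjusted p = 0.743).

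The fall in this list was Slc14a1, the urea transporter that carries the Kidd antigen. It read 2.05, 1.95, 1.88 and 1.97 in CD34- CD103- cells and 3.69, 3.51, 3.65 and 3.61 in CD34+ CD103- cells. It fell by 1.65 (SE 0.07, 3.14-fold, adjusted p = 1.31e-07), opposite to the other called blood group genes.

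Globin genes moved unevenly. Of 7 genes tested of the list of globins and their chaperone, 3 rose and 0 fell (42.9% called, against 12.1% of all genes tested). The list's median was -0.10 (0.04 with slide as a block). Hbb-bh1, an embryonic beta-like globin, read 0.84, -0.13, 0.52 and -0.02 in CD34- CD103- cells and -3.30, -3.22, -3.65 and -3.47 in CD34+ CD103- cells. All CD34- arrays were higher, by 3.71 on average (SE 0.25, 13.1-fold, adjusted p = 4.18e-06). The adult alpha globin Hba-a1 rose by 3.08 (SE 0.22, 8.46-fold), and its probe's distinction from the near-identical second alpha gene was not tested. Hbb-bt, an adult beta globin, read 6.02, 5.44, 5.84 and 5.66 against 6.18, 5.93, 5.98 and 5.91, overlapping groups with a difference of -0.26 (SE 0.14, adjusted p = 0.308). Hbb-y, an embryonic globin, rose by 0.81 (SE 0.22, adjusted p = 0.0355), a call lost under spike-in scaling, with no filter on dim probes and without any of 6 single arrays (1, 3, 5, 6, 7 or 8). The embryonic alpha-like Hba-x differed by -0.10 (SE 0.21, adjusted p = 0.835).

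Of 24 heme synthesis and iron genes tested, 11 rose, 0 fell and 13 were not called, with a median of 0.39. The share called was 45.8%, against 12.1% of all genes tested. Blvrb, a reductase that is abundant in red cells, rose by 2.13 (SE 0.12, 4.39-fold). Alas2, the erythroid form of the first enzyme of heme synthesis, rose by 1.23 (SE 0.14, 2.35-fold, adjusted p = 0.00024), a call lost under normexp correction, and Alad, the next enzyme, by 1.07 (SE 0.14, 2.10-fold). The iron importer Slc11a2 rose by 0.97 (SE 0.07, 1.96-fold). Tfrc, the transferrin receptor that supplies iron to erythroid cells, differed by -0.19 (SE 0.10, adjusted p = 0.303). Of 7 carbonic anhydrases, the red cell forms Car1 (3.07, SE 0.19, 8.39-fold) and Car2 (2.61, SE 0.14, 6.10-fold) rose and 0 fell (28.6% called).

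Within the CD34- CD103- group, erythroid genes differed between arrays. Arrays 2 and 4, which share slide 3, both lay below arrays 1 and 3 for 28 of the 34 erythroid list genes called higher, by a median of 0.40. The same order held for 41.5% of all genes tested. Array 7, the CD34+ CD103- array of slide 3, lay below arrays 5, 6 and 8 for 15 of the 34. Over the 34, it lay below the mean of arrays 5, 6 and 8 by a median of 0.06. The share of all genes with that order was not computed. Each slide held both groups, and the 123 called genes among the 139 examined by name kept their sign within each of the 3 slides. Where groups do not overlap, as for all of the 123 but Jun and Pes1, that outcome was fixed in advance. Among the uncalled, Hba-x, Thy1, Fcer1a, Fcer1g, Itga2b and Slc4a1 changed sign or came to 0 within at least 1 slide.

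**Figure D3:**
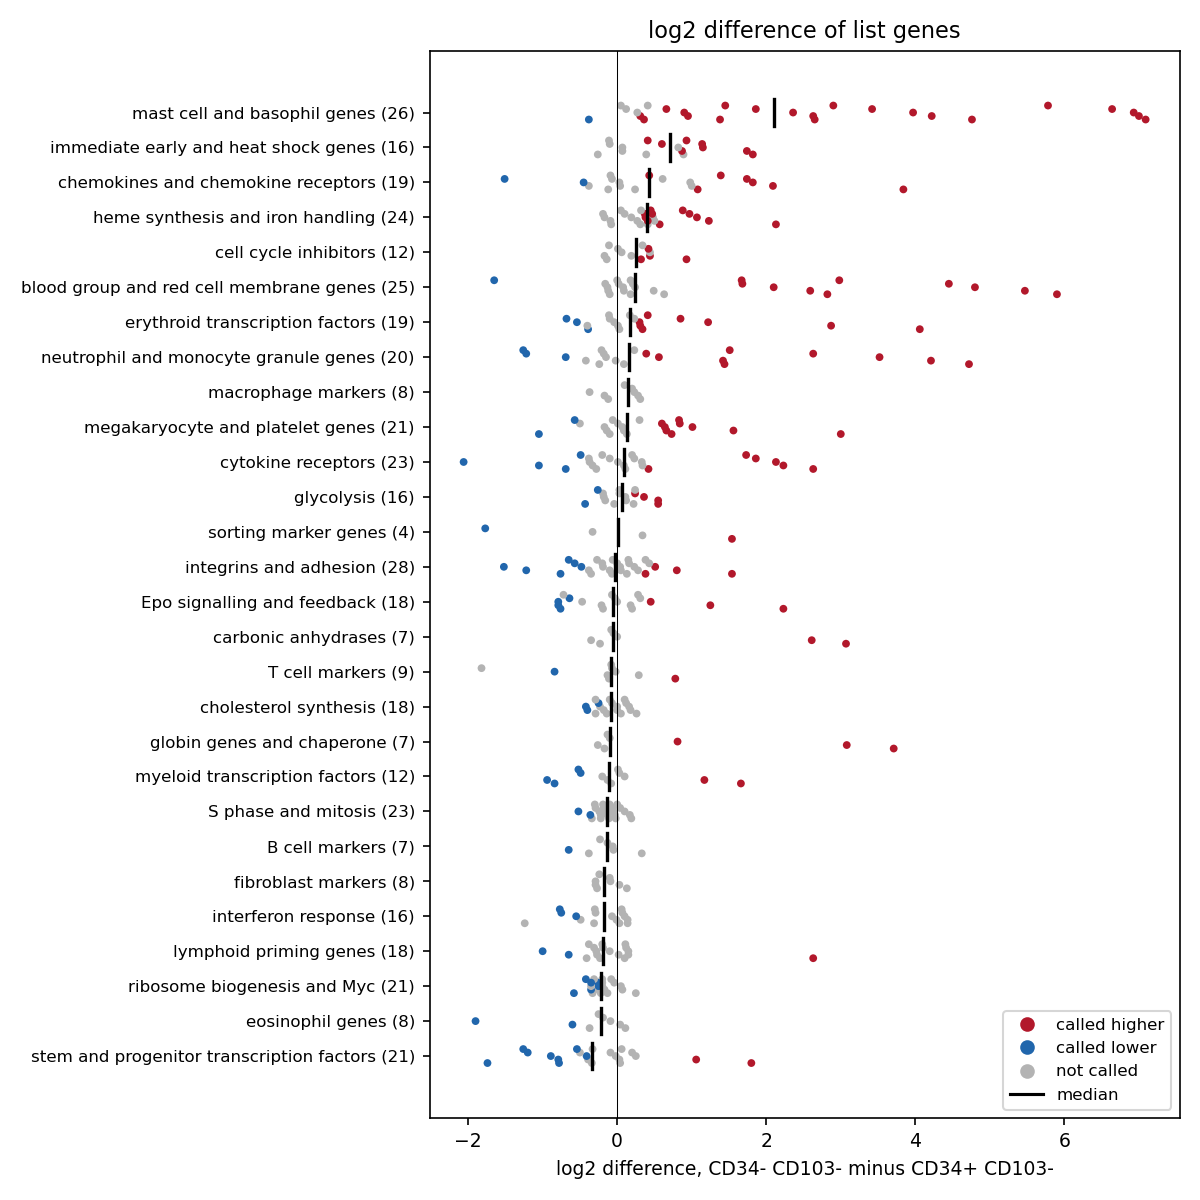
log2 difference between CD34- CD103- and CD34+ CD103- cells (horizontal) for the tested genes of each list (vertical, number of genes in brackets); red points were called higher, blue points lower, grey points neither, and black bars are list medians. Mast cell and basophil genes have the highest median (2.11) and stem and progenitor transcription factors the lowest (-0.34).

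Of 21 stem and progenitor transcription factors tested, 8 fell, 2 rose and 11 were not called, with a median of -0.34. The share called was 47.6%, against 12.1% of all genes tested. Meis1, a homeobox factor of stem cells, read -3.44, -3.17, -4.19 and -3.66 in CD34- CD103- cells and -1.88, -2.01, -1.82 and -1.80 in CD34+ CD103- cells. The groups were apart and the CD34- arrays more spread, with a fall of 1.74 (SE 0.20, 3.34-fold, adjusted p = 0.000231). Tcf7, a Wnt pathway factor, fell by 1.26 (SE 0.10, 2.40-fold) and Sox4 by 1.20 (SE 0.12, 2.30-fold), with Hlf (-0.89, SE 0.09) and Erg (-0.79, SE 0.14) also called.

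The 2 that rose were Gata2 and Lef1. Gata2, shared by stem, mast and early erythroid cells, read 5.10, 5.02, 5.28 and 5.22 against 3.35, 3.12, 3.61 and 3.33. It was higher on all CD34- arrays, by 1.80 (SE 0.11, 3.49-fold, adjusted p = 2.13e-06). Lef1, a relative of Tcf7, rose by 1.06 (SE 0.17, 2.09-fold, adjusted p = 0.00218), in the direction opposite to Tcf7.

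Myeloid transcription factors divided. Of 12 tested, 4 fell and 2 rose (50% called, against 12.1% of all genes tested), with a median of -0.10. Cebpa, the granulocyte factor, fell by 0.94 (SE 0.09, 1.92-fold, adjusted p = 6.74e-05), Cebpg by 0.84 (SE 0.12, 1.79-fold) and Spi1, which encodes PU.1, by 0.52 (SE 0.11, 1.44-fold, adjusted p = 0.013). Egr2 rose by 1.66 (SE 0.31, 3.15-fold) and Cebpb by 1.17 (SE 0.14, 2.25-fold).

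Neutrophil and monocyte granule genes went both ways. Of 20 tested, 9 rose and 3 fell (60% called, against 12.1% of all genes tested). Their median was 0.16, but -0.04 under normexp correction, -0.06 under spike-in scaling and -0.10 without array 1. Their summed signal overlapped between the groups (572 to 647 in CD34- CD103- cells and 611 to 763 in CD34+ CD103- cells). S100a8, a calprotectin subunit, read 2.47, 2.49, 2.80 and 2.46 against -2.08, -1.63, -1.48 and -1.45, far apart, with a rise of 4.21 (SE 0.50, 18.5-fold, adjusted p = 0.000257). S100a9, its partner, rose by 4.72 (SE 0.41, 26.3-fold, adjusted p = 2.65e-05).

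Other granule genes of that list followed either course. Lcn2, which binds bacterial siderophores, was called higher (adjusted p = 1.8e-06), with 1 of 4 CD34+ arrays above background and so no size given. Mmp8, neutrophil collagenase, rose by 2.63 (SE 0.18, 6.17-fold). Lyz2, a lysozyme, rose by 1.51 (SE 0.08, 2.84-fold). Mpo, myeloperoxidase of primary granules, read 7.62, 7.38, 7.40 and 7.41 against 8.80, 8.85, 8.53 and 8.69, lower on all CD34- arrays. It fell by 1.26 (SE 0.11, 2.40-fold, adjusted p = 2.07e-05), as did Itgam, which encodes CD11b (1.22, SE 0.17, 2.34-fold lower). Of 8 eosinophil genes, 2 fell and 0 rose (25% called, against 12.1% of all genes tested). The falls were Epx, eosinophil peroxidase (-1.90, SE 0.35, adjusted p = 0.00497), and Prg3 (-0.60, SE 0.15, adjusted p = 0.023). The call of Prg3 was lost without array 3, 4 or 8.

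Cytokine receptor genes included both rises and falls. Of 23 tested, 6 rose and 4 fell (43.5% called, against 12.1% of all genes tested). Their median was 0.09, and -0.13 under spike-in scaling. Epor, the receptor for erythropoietin, read 1.61, 1.25, 1.73 and 1.12 in CD34- CD103- cells and -0.84, -0.48, -1.21 and -0.65 in CD34+ CD103- cells. It was higher on every CD34- array, by 2.23 (SE 0.17, 4.68-fold, adjusted p = 1.08e-05). Csf2rb, the beta chain used by interleukin 3, interleukin 5 and GM-CSF, rose by 1.73 (SE 0.07, 3.31-fold). Its close relative Csf2rb2 rose by 2.13 (SE 0.11, 4.36-fold), and cross-hybridisation between their probes was not tested. Il7r, a lymphoid cytokine receptor chain, rose by 2.63 (SE 0.33, 6.18-fold).

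Csf3r, the G-CSF receptor, was above background on all 4 CD34+ arrays and on 1 of 4 CD34- arrays. It read -4.32, -4.38, -4.58 and -4.00 in CD34+ CD103- cells and -6.07, -5.69, -7.32 and -6.42 in CD34- CD103- cells, and was called lower (adjusted p = 0.00148), with no size given because most CD34- arrays were not above background.

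Genes downstream of the erythropoietin receptor did not follow Epor as a group. Of 18 tested, Epor included, 3 rose and 4 fell (38.9% called, against 12.1% of all genes tested), with a median of -0.05. Cish, a feedback inhibitor induced by Stat5, rose by 1.25 (SE 0.08, 2.37-fold, adjusted p = 2.39e-06). The survival kinases Pim1 and Pim2 each fell by 0.79 (SE 0.09 and 0.10), and Socs3, another feedback inhibitor, fell by 0.64 (SE 0.15, adjusted p = 0.0204), a call lost without array 1 or 3.

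Megakaryocyte and platelet genes rose in part. Of 21 tested, 9 rose and 2 fell (52.4% called, against 12.1% of all genes tested). Their median was 0.13, and -0.10 under spike-in scaling, and their summed signal was 149 to 159 against 104 to 120. Vwf, von Willebrand factor, read 1.64, 1.54, 1.89 and 1.43 against -1.31, -0.93, -1.65 and -1.61, with no overlap and a rise of 3.00 (SE 0.16, 8.01-fold, adjusted p = 7.52e-07). Pf4, platelet factor 4, rose by 1.56 (SE 0.13, 2.95-fold) and Rab27b, which acts in granule secretion, by 1.01 (SE 0.10, 2.02-fold). Itga2b, the platelet integrin chain CD41, differed by -0.10 (SE 0.14, adjusted p = 0.745).

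Chemokine genes and immediate early genes rose more often than they fell. Of 19 chemokine and receptor genes, 7 rose and 2 fell (47.4% called, against 12.1% of all genes tested). Their median was 0.43, and 0.04 under normexp correction. Ccl7, a monocyte attractant, read -0.73, -0.56, -0.39 and -0.25 against -4.43, -4.06, -4.53 and -4.30, far apart, a rise of 3.84 (SE 0.20, 14.4-fold, adjusted p = 5.67e-07). Ccl2 rose by 2.09 (SE 0.12, 4.27-fold), Cxcl2 by 1.82 (SE 0.28, 3.54-fold) and Ccl3 by 1.74 (SE 0.26, 3.34-fold), while Ccl9 fell by 1.51 (SE 0.10, 2.85-fold). Of 16 immediate early and heat shock genes, 8 rose and 0 fell (50% called), with a median of 0.71.

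Fos, an AP-1 subunit, read 2.97, 4.31, 2.96 and 3.43 in CD34- CD103- cells and 1.22, 2.28, 1.28 and 1.62 in CD34+ CD103- cells. The groups did not overlap but spread widely, with a rise of 1.82 (SE 0.33, 3.52-fold, adjusted p = 0.00447). Egr1 rose by 1.74 (SE 0.21, 3.33-fold, adjusted p = 0.000253). Jun, the other AP-1 subunit, rose by 1.14 (SE 0.31, adjusted p = 0.0353) with overlapping arrays, and its call was lost under normexp correction, in the fit on 8 arrays and without any of 5 single arrays (2, 4, 5, 7 or 8).

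Called proliferation and growth genes differed by less than 2-fold. Of 23 S phase and mitosis genes 0 rose and 2 fell (8.7% called, against 12.1% of all genes tested). Cdk1 fell by 0.52 (SE 0.11, 1.44-fold) and Aurka by 0.36 (SE 0.10, adjusted p = 0.0461). The call of Cdk1 was lost over the mean of its probes, and that of Aurka in 6 of the other settings and without any of 6 single arrays (2, 3, 4, 5, 7 or 8). Of 12 cell cycle inhibitors 4 rose and 0 fell (33.3% called, above the share of all genes). Rb1, the retinoblastoma gene, led them at 0.93 (SE 0.08, 1.91-fold, adjusted p = 2.6e-05). Cdkn1a, which encodes p21, rose by 0.44 (SE 0.10, adjusted p = 0.0136), a call lost under spike-in scaling. Of 21 ribosome biogenesis and Myc genes 0 rose and 6 fell (28.6% called, against 12.1% of all genes tested), with a median of -0.22. Myc itself fell by 0.42 (SE 0.10, adjusted p = 0.0235). That call was lost in the deposited table, in the fit on 8 arrays and without array 2, 4, 5 or 8.

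Metabolic lists showed small differences. Of 16 glycolysis genes 4 rose and 2 fell (37.5% called, against 12.1% of all genes tested). Their median was 0.07, and -0.16 under spike-in scaling. Slc2a1, the glucose transporter, rose by 0.55 (SE 0.07) and Hk2, a hexokinase, fell by 0.43 (SE 0.09), calls lost under spike-in scaling and normexp correction respectively. Of 18 cholesterol synthesis genes 0 rose and 3 fell (16.7% called, against 12.1% of all genes tested). The largest fall was Hmgcs1 at -0.42 (SE 0.09, adjusted p = 0.0159). All 3 falls (Hmgcs1, Dhcr7 and Fdft1) lost their calls over the mean of each gene's probes.

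Of 28 integrin and adhesion genes tested, 6 fell and 4 rose (35.7% called, against 12.1% of all genes tested), Itgae among the rises. Itgax, which encodes CD11c, read -2.17, -2.47, -2.46 and -2.13 against -0.76, -0.85, -0.77 and -0.76, lower on all CD34- arrays, a fall of 1.52 (SE 0.09, 2.87-fold, adjusted p = 1.79e-06). Cd44, the hyaluronan receptor, rose by 0.80 (SE 0.12, adjusted p = 0.00158), a call lost under spike-in scaling.

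The largest falls included a death receptor, a transporter and an innate immune gene. Tnfrsf1a, a receptor for tumour necrosis factor, read 0.80, 0.71, 0.93 and 0.77 in CD34+ CD103- cells and -1.36, -1.07, -1.68 and -0.98 in CD34- CD103- cells. It fell by 2.08 (SE 0.15, 4.22-fold, adjusted p = 7.9e-06) with no overlap. Slco3a1, an organic anion transporter, read 5.57, 5.65, 5.44 and 5.79 against 3.48, 3.66, 3.38 and 3.62, and fell by 2.07 (SE 0.11, 4.21-fold, adjusted p = 1.38e-06). Pglyrp1, a peptidoglycan recognition protein, fell by 2.05 (SE 0.10, 4.15-fold), and Il15, a lymphoid cytokine, by 1.76 (SE 0.11, 3.39-fold). The other named genes with large falls, Abca4, Islr, Kctd14, Gm4861, Thsd1, Rab3il1, Il17re and Tmem86a, fell by 1.84 to 2.03. Groups without overlap were a condition for naming every gene of this paragraph.

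The remaining large rises were not on the erythroid lists. Clec10a, a C-type lectin of myeloid cells, read 4.12, 4.44, 4.38 and 4.28 against -1.45, -1.34, -1 and -1.21, a rise of 5.55 (SE 0.15, 46.9-fold, adjusted p = 5.31e-09) with the groups far apart. Mrgprb1, a G protein coupled receptor of the Mrg family, was called higher (adjusted p = 6.83e-06) with 2 of 4 CD34+ arrays above background, and Pilra, an inhibitory receptor, rose by 5.17 (SE 0.13, 35.9-fold). Tspan33, a tetraspanin, rose by 5.40 (SE 0.18, 42.3-fold) and Csrp3, a LIM domain protein known from muscle, by 5.37 (SE 0.18, 41.4-fold). P2ry10b was called higher (adjusted p = 0.000211), but only array 5 of the CD34+ arrays was above background, at -6.07 against -9.02 to -8.65 for the others, so no size is given.

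Markers of macrophages, fibroblasts, T cells and B cells were called for 3 of 32 tested (9.38%), near the 12.1% of all genes. Of 8 macrophage and 8 fibroblast markers 0 rose and 0 fell, of 9 T cell markers 1 rose (Cd3g, a call lost under normexp correction) and 1 fell (Lck), and of 7 B cell markers 0 rose and 1 fell (Cd79b). Their summed signals overlapped between the groups, at 1.12 to 1.64 against 1.06 to 1.55 for macrophage, 4.00 to 5.09 against 4.70 to 5.32 for fibroblast, 2.48 to 4.07 against 2.53 to 4.09 for T cell and 0.67 to 0.925 against 0.70 to 0.997 for B cell markers, in multiples of the 75th percentile. Of 16 interferon response genes 0 rose and 3 fell (18.8% called), among them Usp18 by 0.75 (SE 0.08). Of 18 lymphoid priming genes 1 rose, Il7r, and 2 fell, Ccr9 by 1.00 (SE 0.18) and Cd79b by 0.65 (SE 0.11). That list had 16.7% of its tested genes called, again against 12.1% of all genes.

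The CD34- CD103- Epo arrays of the same set gave context for these levels. Hdc averaged 1.97 there, between 4.51 ± 0.12 (SD, n = 4) in CD34- CD103- cells and -2.57 ± 0.25 (SD, n = 4) in CD34+ CD103- cells. Kel averaged -1.35 and Gata1 0.26 on the Epo arrays, also between the means of both fractions, as did Cd34 at 5.79. Of the 123 called genes examined by name, 98 had an Epo mean between both fractions, 17 below both and 8 above both. The naming favoured genes with large gaps between the fractions, which makes a mean in between more likely. The share over all genes tested was not computed. Il7r (-5.09) and Lyz2 (0.29) were among those below both, and Pf4 (4.79) among those above.

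The change was then set against the other sorted pair in which Cd34 falls, the labels' EryCP and CR Sca1lo fractions of the first set, 3 arrays each and none shared. Each pair lies in its own array set, so that set and cell fraction cannot be told apart in this comparison. In a fit over both sets on 25938 genes, 2187 genes were called between CD34- CD103- and CD34+ CD103- cells and 3189 between EryCP and CR Sca1lo. Of these, 1747 were called in the same direction in both, 79.9% of the former and 54.8% of the latter, and 7 in opposite directions. Among the 1747, the difference was smaller in the CD103- pair for 1472.

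The difference between the steps themselves was called for 196 genes (0.756%), 85 positive (0.328%) and 111 negative (0.428%), where positive means higher or less reduced in the CD103- pair. Of the 196, 177 moved the same way in both pairs and 174 moved less in the CD103- pair. With normexp correction 6 were called (Lyz1, Cma1, Itgae, Pilrb1, Mcpt8 and Nxnl2), and the other calls were not made under that setting. Nxnl2 and Mcpt8 were named after their values were seen.

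**Figure D4:**
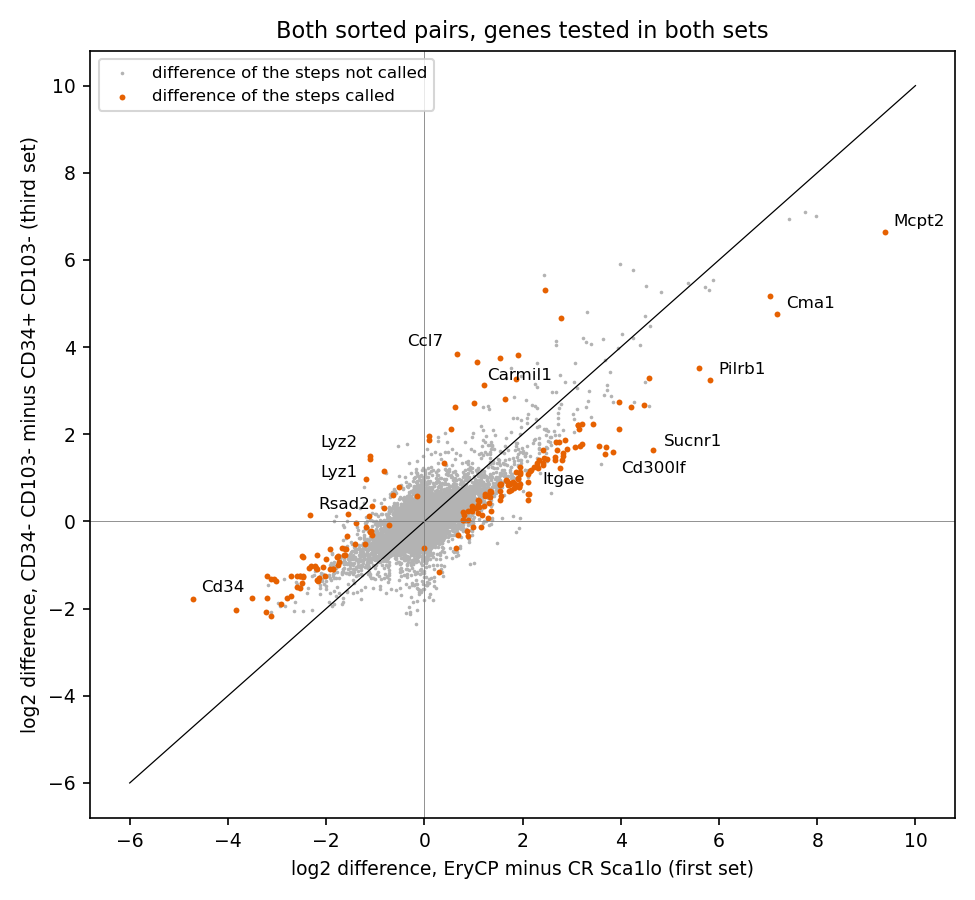
log2 difference between CD34- CD103- and CD34+ CD103- cells of the third set (vertical) against that between EryCP and CR Sca1lo cells of the first set (horizontal), 1 point per gene tested in both; orange points are the 196 genes whose difference between the pairs was called, and the diagonal marks equal differences. Cd34 lies at -1.77 and -4.71, and Lyz1 and Lyz2 rise in the CD103- pair and fall in the other.

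Cd34 fell less in the CD103- pair. In the first set it read 6.29, 6.38 and 6.07 in CR Sca1lo and 1.31, 1.18 and 2.10 in EryCP cells, a fall of 4.71 (SE 0.22) against 1.77 here. The difference of the steps was 2.95 (SE 0.29, adjusted p = 3.68e-05), and 2.61 with adjusted p = 0.104 under normexp correction. Itgae rose by 1.54 here and by 3.67 (SE 0.15) in the other pair, where CD103 is not part of the labels, a difference of -2.12 (SE 0.20, adjusted p = 3.08e-05).

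Lysozyme genes moved in opposite directions. Lyz2 read 2.18, 2.43 and 2.01 in CR Sca1lo and 1.24, 0.73 and 1.34 in EryCP cells, a fall of 1.1 (SE 0.15), and it rose by 1.51 here. The difference of the steps was 2.61 (SE 0.19, adjusted p = 1.84e-06), and that of Lyz1, its close copy, 2.54 (SE 0.17, adjusted p = 1.04e-06). Probes of the pair may read each other's RNA, which was not tested. Rsad2, an interferon-induced gene, fell by 2.32 (SE 0.38) in the other pair and differed by 0.14 here, a difference of 2.46 (adjusted p = 0.0282).

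Ccl7 and Carmil1, a regulator of actin capping, rose more in the CD103- pair. Ccl7 rose by 3.84 here and differed by 0.67 (SE 0.33) in the other pair, a difference of 3.17 (SE 0.44, adjusted p = 0.0012). Carmil1 rose by 3.67 here and by 1.07 there, a difference of 2.61 (SE 0.29, adjusted p = 0.000164).

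The mast cell proteases Mcpt2 and Cma1 rose less here than in the other pair, at 6.64 against 9.38 and 4.76 against 7.19, with differences of -2.74 (SE 0.27, adjusted p = 3.68e-05) and -2.43 (SE 0.26, adjusted p = 0.000103). For Hdc the steps were 7.09 (SE 0.14) and 7.75 (SE 0.17), and their difference of -0.67 (SE 0.22, adjusted p = 0.338) was not called. Nor was that of Kel, at 5.47 and 5.36 (difference 0.11, SE 0.40). Gata1 rose by 2.87 here and 3.81 there (difference -0.94, SE 0.22, adjusted p = 0.0608). Sucnr1, the succinate receptor, rose by 1.64 here and 4.66 there, Pilrb1, an activating receptor related to Pilra, by 3.25 and 5.81, and Cd300lf, an inhibitory receptor of myeloid cells, by 1.59 and 3.84. Their differences were -3.02 (SE 0.27), -2.56 (SE 0.14) and -2.25 (SE 0.19).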

How the data were processed

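Agilent Feature Extraction made the scanner files, per the file headers (10.7.1.1 in the third set, 10.1.1.1 in the first). These deposited files give linear spot intensity, as a processed signal with background subtracted, a median signal and a median local background, and mark the spots above background. Saturation marks were absent from the 8 arrays compared. A deposited table for all arrays gives log2 values, scale and centring unstated; its 11 third-set columns had medians of 7.28 to 7.29, correlated with the log2 processed signal at r of at least 0.9997 and were used as an alternative, and 15 columns were not used.

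Control spots and outliers were dropped, and repeat spots of 1 probe averaged. Levels are log2 processed signal minus the 75th percentile of the array. Probes well above background on every array of at least 1 group were kept, with the brightest probe per gene, and unnamed probes counted as genes. Of 41174 probes, 27071 were named through a RefSeq table of GRCm38.p6, covering 18378 symbols. Of 931 called genes with several probes, 423 had every probe called in 1 direction and 1 had probes called in opposite directions. limma 3.58.1 (R 4.3.3; lmFit, eBayes, 2-sided, Benjamini-Hochberg) was fitted to the 11 third-set arrays, and, for the difference of steps, to 20 arrays of 2 sets. The scripts were tested on simulated data. The files hold no mean signal, so normexp used the median signal. Figures were drawn in Python 3.11.15 with matplotlib 3.10.9.

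The comparison, its 28 gene lists and 460 list genes were chosen with earlier results of these data known; 447 were on the array and 434 tested. Named genes are the sorting marker genes with Hdc, Kel and Gata1, the 15 called genes per direction with the largest difference whose groups do not overlap and that are above background on the higher group's 4 arrays, the 4 largest called members of each list (the largest member where fewer than 2 were called), and the 6 largest differences of steps per direction. Tpsb2, Ms4a2, Mcpt8, Mitf, Il1rl1, Cpa3, Fcer1a, Fcer1g, Gypc, Rhag, Art4, Slc14a1, Slc4a1, Ank1, Tfrc, Hba-x, Hbb-bt, Tal1, Myb, Spi1, Mpo, Lyz2, Lef1, Erg, Hlf, Csf2rb, Itga2b, Ccl9, Socs3, Cd8a and Oasl2 were added after their values were seen. Some genes that the rule names are not reported here. The number of arrays limits the precision.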

Additional observations from a re-analysis of the deposited data

Results flagged for a closer look

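A single array stood apart from the other 3 of its group for 15 of 278 groups of 4 arrays examined over 139 genes, where chance flags about 1 in 20. In CD34- CD103- cells, array 3 was low for Cd34 (4.63 against 5.20 to 5.28), Kctd14 (-4.08 against -3.80 to -3.78) and Blvrb (3.08 against 3.15 to 3.17) and high for S100a8 (2.80 against 2.46 to 2.49). Array 1 was low for Kit (4.31 against 4.66 to 4.67) and Cd8a (-8.43 against -3.45 to -3.22) and high for Mpo (7.62 against 7.38 to 7.41). Cd8a, a T cell marker, differed by -1.82 (SE 0.98, adjusted p = 0.316), so that array 1 decides its size.

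In CD34+ CD103- cells, array 5 was low for Ermap (-6.93 against -6.45 to -6.40) and Tspan33 (-5.91 against -5.49 to -5.43) and high for P2ry10b (-6.07 against -9.02 to -8.65) and Pim2 (2.04 against 1.89 to 1.91). Array 6 was high for Cma2 (-0.95 against -1.36 to -1.32) and Socs3 (1.04 against 0.54 to 0.62) and low for Itgax (-0.85 against -0.77 to -0.76). Array 7 was high for Oasl2, an interferon response gene (-1.71 against -3.83 to -3.73), which differed by -1.24 (SE 0.43, adjusted p = 0.0994).

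The difference between the CD103- pair and the EryCP pair was called for Ccl7 (3.17), Cd34 (2.95), Lyz2 (2.61), Carmil1 (2.61), Lyz1 (2.54) and Rsad2 (2.46), and for Sucnr1 (-3.02), Mcpt2 (-2.74), Pilrb1 (-2.56), Cma1 (-2.43), Cd300lf (-2.25) and Itgae (-2.12). Each was tested as an interaction in limma's fit over both sets.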

How the results depend on the processing

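The count of 3300 called genes ranged from 2377 (the fit on 8 arrays alone) to 4663 (slide as a fixed block) over the alternatives, and from 2426 to 3408 when arrays were left out in turn; 2173 of the 2383 genes called under normexp correction were also among the 3300. The count of 196 for the difference of steps fell to 6 under normexp correction and rose to 837 with slide as a fixed block, and lay between 126 and 221 without single arrays, lowest without EryCP array 9 (126), CD34- CD103- array 4 (127) and EryCP array 7 (129); the cause was not tested. Among the 139 genes examined by name, the direction turned only for uncalled genes near 0: Ank1 was -0.08 under normexp correction, -0.15 under spike-in scaling and -0.02 over the mean of its probes, Cpa3 -0.11 and Fcer1g -0.17 under spike-in scaling, Fcer1g -0.02 without CD34- CD103- array 1 and -0.03 without CD34+ CD103- array 7 (-0.03 to 0.12 over single arrays left out), Myb 0.04 in the deposited table, Hba-x 0.04 with the slide block and Itga2b 0 without CD34+ CD103- array 5. Over the mean of a gene's probes, Mitf, Cdk1, Hmgcs1 and Dhcr7 lost their calls. Calls of Pes1, Aurka, Btg1, Fdft1, Aldoa, Myc and Rrp12 were lost in several settings. Rsad2's difference of steps lost its call without most single arrays (adjusted p up to 0.091). No paired analysis was possible because the groups compared share no replicate numbers; the slide block above is a block on slides that hold both groups.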
